A study of Mus musculus with 20 samples.

Results

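The mitosis and G2/M set holds 44 genes that act between the end of DNA replication and the separation of the daughter cells. They were chosen by symbol, with earlier results of these data known, and all 44 were present among the 13283 gene symbols of the expression table. RNA was sequenced from mouse embryonic stem cells (mESC; strain C57BL/6, male per the labels), grown in medium with serum, LIF and the 2i inhibitor pair. The conditional system compared 4 libraries of floxed cells (Trim71-cond, genotype label Trimfl/fl) with 4 libraries of cells labelled Trim71-KO. Each of these groups carried the codes 1A, 2B, 3A and 3B, from the days labelled 1, 2, 3 and 3, and no source used here gives how the deletion was induced. The clonal system compared 3 WT clones (C16, C7, C5), 3 R595H/+ clones (C15, C21, C23) and 3 R595H/R595H clones (C14, C20, C24), in 12 libraries. TRIM71 is an RNA-binding protein of stem cells, and R595H is a change in its sequence. C16, C14 and C15 each had a library titled 20/1 and one titled 5/2, which were averaged, so that the clone was the replicate. Values for clones are given in this order and values for conditional libraries in the order 1A, 2B, 3A, 3B.

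Entry into mitosis is driven by cyclin-bound CDK1, which WEE1 restrains and CDC25 phosphatases release. Aurora and Polo-like kinases then build the spindle, kinetochores attach chromosomes to it, and the spindle checkpoint holds the anaphase-promoting complex (APC/C) with its activator CDC20 until attachment is complete. Most of these genes are transcribed in a wave late in the cell cycle, which is repressed earlier by the DREAM complex and switched on by MuvB with B-MYB and FOXM1, often through a promoter element named CHR and nearby CCAAT boxes bound by NF-Y. Embryonic stem cells divide fast and keep these genes at a high level. In bulk RNA, a smaller share of cells in G2 or mitosis and less RNA per such cell cannot be told apart.

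The deposited values are on a log scale taken here as log2, and library medians ran from 5.15 to 5.20; how deeply each library was sequenced cannot be read from them. Trim71 itself lay between 8.93 and 9.01 in the Trim71-cond libraries and between 7.43 and 7.53 in Trim71-KO, so transcript counted to the gene remained there above the library medians. The clones stood at 9.50 ± 0.028 (WT), 9.58 ± 0.042 (R595H/+) and 10.11 ± 0.099 (R595H/R595H; SD, n = 3 each). All 8 pluripotency markers examined were measured, between 2.87 and 11.8. Of 8 fibroblast feeder markers 2 were measured, at 1.22 to 2.10. Averaged over 6 Y-linked genes, the value was 4.56 to 4.82 in Trim71-cond and 4.35 to 4.42 in Trim71-KO. Every Trim71-KO library thus lay below every Trim71-cond library. It was 4.68 in WT C5, 4.06 to 4.34 in R595H/+ C15 and C21, and 2.94 to 3.42 in WT C16, WT C7, R595H/+ C23 and all R595H/R595H libraries. With this average as a covariate, no member was called between clones. The covariate was not run for Trim71-KO against Trim71-cond.

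The table also carried less independent variation than its 20 libraries allow, which bears on every error given here. Its rank was 15: along 5 weighted combinations of libraries, each summing to 0 within every genotype, the largest value of any gene was 9.3e-06. Of the 15 dimensions of variation within genotypes, 10 were left, and no source used here names the step that removed the others. The removed part came to 1.03 of 6 such dimensions in the conditional libraries and 3.97 of 9 in the clonal libraries. The difference of the code 1A libraries from the other codes lay to 94.3% inside these combinations. Deviations of the 1A libraries of the conditional groups from their group means correlated at -0.89 across genes, against -0.09, -0.12 and 0.13 for 2B, 3A and 3B. Libraries C14 20/1 and C14 5/2 differed by an SD of 0.0331 across genes, the smallest difference of any pair within a genotype. SDs, standard errors and p-values are therefore too small by an unknown amount. For Trim71-KO against Trim71-cond, counts of calls over the members and over the further gene lists are also given from a second fit of all 20 libraries, in which the 5 combinations were covariates. That fit shares a common error per gene between the systems, and the combinations lie mostly in the clonal libraries. Its loss of calls is therefore not a measure of the error of the deletion alone.

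The promoters of the members are shown first, because the set is known for a shared promoter design. Windows of 250 bases before and 50 bases after the annotated start were available from RefSeq (GRCm38.p6) for 35 of the 44 members. The CHR was searched as TTTGAA or TTCGAA and the CCAAT box as CCAAT, on both strands. A CHR match was found in 28 of the 35 member promoters (80.0%) and in 19.4% of all 27025 promoters. A CCAAT match was found in 26 of 35 (74.3%), against 37.9% of all promoters, and both were present in 24 of 35 (68.6%), against 7.70%. CHR matches lay within 50 bases of the start in 26 member promoters (74.3%) and in 5.29% of all promoters. In the further mitosis lists described below, 108 genes had a promoter. A CHR match was held by 47 of these (43.5%), a CCAAT match by 63 (58.3%) and both by 33 (30.6%). Among the 26 S-phase genes used for comparison, 4 of the 19 with a promoter held a CHR match (21.1%) and 15 held a CCAAT match (78.9%).

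Both motifs occurred in members that were lower and in members that were higher in Trim71-KO than in Trim71-cond. Of the 9 that were lower, 8 had a promoter and 7 of those a CHR match. Of the 4 that were higher, 3 had a promoter and 2 a CHR match. Among the 31 that were not called, 19 of 24 promoters held one. The 6 sequences below run 5′ to 3′ from 150 bases before to 29 bases after the start and show Kif2c, Cdc20, Cdk1 and Bub1, which were lower, beside Cenpf and Hmmr, which were higher. All are on the minus strand of GRCm38.p6, at chr4:117178744-117178922, chr4:118437315-118437493, chr10:69352884-69353062, chr2:127831831-127832009, chr1:189688058-189688236 and chr11:40733409-40733587. Capitals mark CHR and CCAAT matches on either strand.
Kif2c: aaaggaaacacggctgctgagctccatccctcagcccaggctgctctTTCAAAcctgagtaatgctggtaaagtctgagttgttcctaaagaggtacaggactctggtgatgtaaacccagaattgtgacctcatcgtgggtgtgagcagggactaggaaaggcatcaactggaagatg
Cdc20: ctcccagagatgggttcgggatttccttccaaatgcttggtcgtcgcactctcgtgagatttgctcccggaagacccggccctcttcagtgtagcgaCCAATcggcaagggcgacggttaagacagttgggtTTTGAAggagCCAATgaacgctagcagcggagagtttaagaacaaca
Cdk1: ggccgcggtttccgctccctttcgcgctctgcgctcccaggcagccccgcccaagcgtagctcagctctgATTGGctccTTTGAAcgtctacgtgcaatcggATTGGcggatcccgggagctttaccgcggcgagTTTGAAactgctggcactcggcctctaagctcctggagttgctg
Bub1: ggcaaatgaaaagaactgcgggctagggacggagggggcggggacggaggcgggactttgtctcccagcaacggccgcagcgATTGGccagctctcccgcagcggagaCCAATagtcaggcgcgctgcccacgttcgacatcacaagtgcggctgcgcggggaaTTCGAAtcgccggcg
Cenpf: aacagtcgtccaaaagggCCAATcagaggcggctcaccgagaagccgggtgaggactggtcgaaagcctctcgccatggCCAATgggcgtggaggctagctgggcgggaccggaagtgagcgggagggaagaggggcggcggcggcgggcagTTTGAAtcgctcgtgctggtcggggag
Hmmr: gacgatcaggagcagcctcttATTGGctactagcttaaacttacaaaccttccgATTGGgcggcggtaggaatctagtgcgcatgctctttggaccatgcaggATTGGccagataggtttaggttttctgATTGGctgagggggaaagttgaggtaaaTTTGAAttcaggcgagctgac
In Cdc20 a CHR match starts 18 bases before the start, between CCAAT matches that start 53 and 8 bases before it. Cenpf and Hmmr, from the opposite direction of change, have the same elements, with a CHR that starts 3 and 9 bases after the start. Kif2c had the largest fall and a single CHR match, 103 bases before the start, with no CCAAT match in the window. A match describes the letters only.

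**Figure D1:**
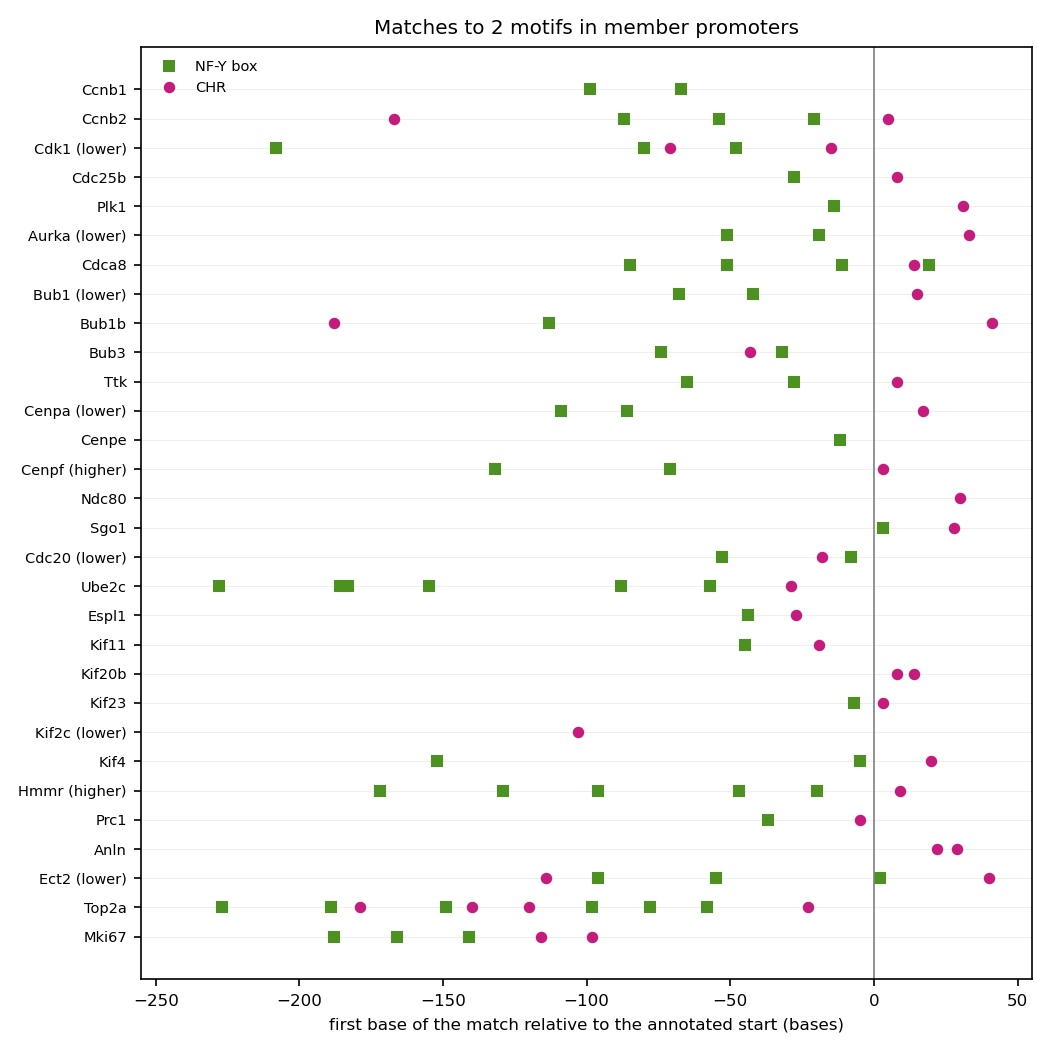
Position of each match to the CHR (circles) and the CCAAT box, labelled NF-Y box (squares), in bases from the annotated start (vertical line), for member promoters with at least 1 match. Lower and higher mark members called in Trim71-KO against Trim71-cond. Circles cluster at the start, with squares mostly before it, in members of either direction and in members that were not called.

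Levels of the members spanned a wide range. The mean over all libraries and clones ran from 3.78 for Cdc25b, a phosphatase that activates CDK1, to 12.27 for Top2a, which untangles sister chromatids. Per kilobase of the longest coding transcript in WT, on the log2 scale, the same genes stood at 2.13 and 9.82. The mean over the 44 members was 8.14 ± 0.024 (SD, n = 4) in Trim71-cond, with libraries between 8.11 and 8.17. In Trim71-KO it was 8.08 ± 0.027 (SD, n = 4), with libraries between 8.05 and 8.10. These groups did not overlap, but they nearly touched, at 8.110 in Trim71-cond 1A and 8.102 in Trim71-KO 1A. Most of the difference of the 1A libraries from the other codes lay inside the empty combinations, as given above. The clonal groups did overlap, at 8.16 ± 0.015 (WT), 8.16 ± 0.018 (R595H/+) and 8.15 ± 0.012 (R595H/R595H; SD, n = 3 each).

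Differences between Trim71-KO and Trim71-cond were small and mixed in these genes. In Trim71-KO against Trim71-cond, 13 of the 44 members (29.5%) passed an adjusted p of 0.05 in limma, 9 lower and 4 higher, against 18.6% of the 9580 genes tested. Lower calls made up 20.5% of the members and 9.37% of all genes, and higher calls 9.09% and 9.24%. The members that fell were Kif2c, Cenpa, Cdc20, Pttg1, Aurka, Kif20a, Bub1, Cdk1 and Ect2. Those that rose were Bora, Cenpf, Hmmr and Nusap1. No called change was larger than 1.26-fold. The median difference was -0.058 over the members and -0.0028 over all genes, with 29 members below 0 and 15 above it. An unadjusted p under 0.05 was reached by 17 of the 44 members and by 3129 of the 9580 genes.

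With the 5 empty combinations of libraries as covariates, 2 of the 44 members (4.55%) were called, Kif2c lower and Cenpf higher, against 7.22% of all genes. The same fit of 20 libraries without these covariates called 14 members and 1865 of 9588 genes. With only 2 calls, the share of called members in the fit with covariates cannot be set apart from that of all genes. Groups did not overlap for 13 members (29.5%), against 20.7% of all genes. These 13 were the called members without Kif20a and with Bub1b, a checkpoint kinase that was not called. The median difference over the members within a code was -0.0079 in 1A, -0.09 in 2B, -0.084 in 3A and -0.066 in 3B.

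**Figure D2:**
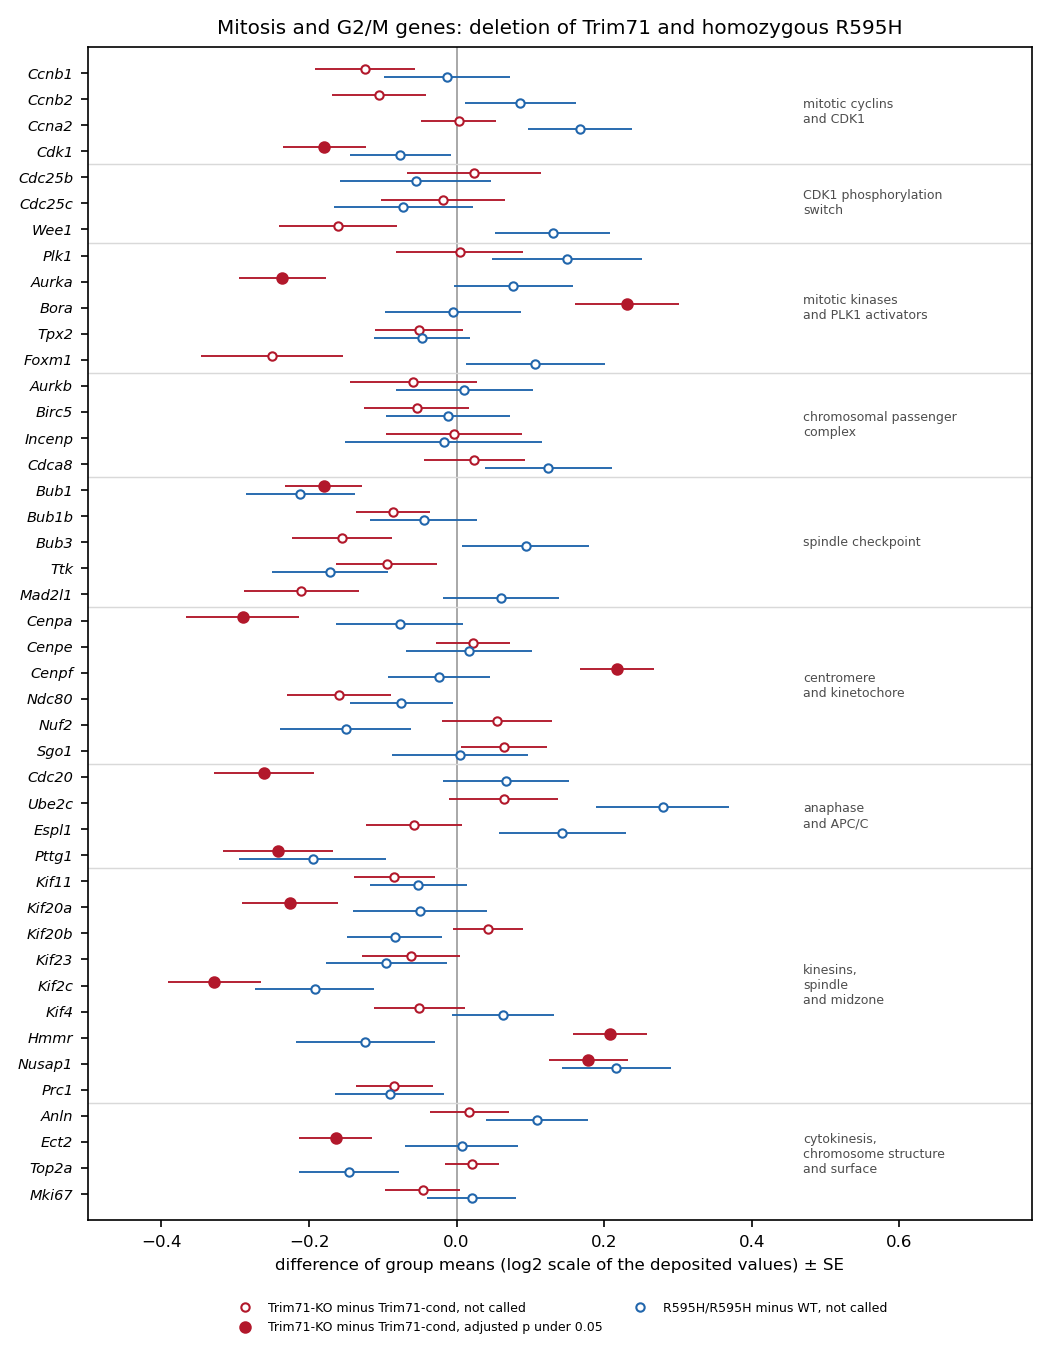
Difference of group means with its standard error for each of the 44 members, grouped by role, in Trim71-KO against Trim71-cond (red) and R595H/R595H against WT (blue), on the log2 scale. Filled points passed an adjusted p of 0.05. The 13 filled points are all from the deletion, between -0.33 for Kif2c and 0.23 for Bora, and no blue point is filled.

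Among the cyclins and their kinase, only the kinase was called. Cdk1 read 8.90, 9.04, 9.02 and 9.06 in Trim71-cond and 8.89, 8.78, 8.74 and 8.89 in Trim71-KO. The Cdk1 groups did not overlap, though Trim71-cond 1A and Trim71-KO 1A nearly touched, and the difference was -0.18 ± 0.056 (SE, adjusted p = 0.0297). With the labelled day as a block, the adjusted p for Cdk1 was 0.0552. Ccnb1 and Ccnb2, the B-type cyclins that activate CDK1 at mitotic entry, differed by -0.12 ± 0.068 and -0.11 ± 0.064, with adjusted p of 0.214 and 0.263. Ccna2, a cyclin of S phase and G2, differed by 0.0027 ± 0.05. No gene of the CDK1 phosphorylation switch was called. Wee1, whose kinase inhibits CDK1, had the smallest p there, with 6.76, 6.91, 7.01 and 6.77 in Trim71-cond and 6.84, 6.66, 6.76 and 6.54 in Trim71-KO. The Wee1 groups overlapped, and the difference was -0.16 ± 0.08 (SE, adjusted p = 0.168). The activating phosphatases Cdc25b and Cdc25c differed by 0.024 ± 0.091 and -0.018 ± 0.084.

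Of the 5 mitotic kinases and partners, 1 was called lower and 1 higher. Aurka encodes Aurora A, a centrosome and spindle kinase. Aurka read 8.29, 8.24, 8.35 and 8.25 in Trim71-cond and 8.05, 7.94, 8.05 and 8.15 in Trim71-KO. Every Trim71-KO library lay below every Trim71-cond library, with a difference of -0.24 ± 0.059 (SE, adjusted p = 0.00862). BORA is the cofactor with which Aurora A activates Polo-like kinase. For Bora the values were 6.36, 6.38, 6.34 and 6.50 in Trim71-cond and 6.62, 6.63, 6.64 and 6.61 in Trim71-KO. Here every Trim71-KO library was the higher, by 0.23 ± 0.07 (SE, adjusted p = 0.0263), and the adjusted p was 0.0728 with the codes as a block. Plk1, the Polo-like kinase itself, differed by 0.0042 ± 0.086, and Tpx2, a spindle protein that activates Aurora A, by -0.051 ± 0.059. Foxm1, a transcription factor of G2/M genes, differed by -0.25 ± 0.10 (SE, adjusted p = 0.0736).

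No member of the chromosomal passenger complex was called. This complex of Aurora B with its scaffold and targeting subunits corrects wrong attachments and guides cytokinesis. The smallest p in the complex belonged to Birc5 (survivin), with 7.56, 7.55, 7.75 and 7.80 in Trim71-cond and 7.68, 7.49, 7.67 and 7.61 in Trim71-KO. The Birc5 groups overlapped, and the difference was -0.054 ± 0.071 (SE, adjusted p = 0.639). Aurkb differed by -0.059 ± 0.086, Incenp by -0.0033 ± 0.092 and Cdca8, which encodes borealin, by 0.024 ± 0.068.

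All 5 spindle checkpoint genes were below 0, and 1 of them was called. Bub1 encodes a checkpoint kinase at the kinetochore. Bub1 read 9.39, 9.32, 9.35 and 9.39 in Trim71-cond and 9.15, 9.29, 9.18 and 9.10 in Trim71-KO. The groups did not overlap, with a difference of -0.18 ± 0.052 (SE, adjusted p = 0.0194). Mad2l1, whose product inhibits CDC20, differed by -0.21 ± 0.078 (SE, adjusted p = 0.0624), and Bub3, the partner of BUB1, by -0.16 ± 0.068 (SE, adjusted p = 0.116). Bub1b, which encodes BUBR1, differed by -0.086 ± 0.05 with groups that did not overlap, and Ttk, the kinase MPS1, by -0.095 ± 0.069. The median of the 5 was -0.16.

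Centromere and kinetochore genes included a call in each direction. Cenpa encodes the histone H3 variant that marks centromeres. Cenpa read 7.52, 7.54, 7.76 and 7.52 in Trim71-cond and 7.36, 7.41, 7.09 and 7.30 in Trim71-KO. Trim71-cond 3A was far above the other Trim71-cond libraries and Trim71-KO 3A was the lowest Trim71-KO library. The Cenpa groups did not overlap, with a difference of -0.29 ± 0.076 (SE, adjusted p = 0.0117), and without both 3A libraries it was -0.17 (adjusted p = 0.143). Cenpf encodes a large kinetochore protein of G2 and mitosis. Cenpf read 10.65, 10.53, 10.63 and 10.68 in Trim71-cond and 10.79, 10.95, 10.74 and 10.87 in Trim71-KO. Every Trim71-KO library was above every Trim71-cond library, by 0.22 ± 0.05 (SE, adjusted p = 0.00497). Ndc80 and Nuf2, partners in the complex that binds microtubules, differed by -0.16 ± 0.07 and 0.055 ± 0.074. Cenpe, a kinetochore motor, differed by 0.022 ± 0.05, and Sgo1, which protects centromeric cohesion, by 0.064 ± 0.058.

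Of the 4 genes of anaphase control, 2 were called, both lower. Cdc20 encodes the activator of the APC/C. Cdc20 read 8.00, 8.10, 8.12 and 8.15 in Trim71-cond and 7.91, 7.64, 7.83 and 7.95 in Trim71-KO. The groups did not overlap, and Trim71-KO 2B was the lowest library, with a difference of -0.26 ± 0.068 (SE, adjusted p = 0.0111). Pttg1 encodes securin, which holds separase inactive until the APC/C destroys it. Pttg1 read 7.61, 7.54, 7.77 and 7.44 in Trim71-cond and 7.36, 7.20, 7.42 and 7.41 in Trim71-KO. Trim71-cond 3B and Trim71-KO 3A lay close together without overlap, and the difference was -0.24 ± 0.075 (SE, adjusted p = 0.0279). Espl1, which encodes separase, differed by -0.058 ± 0.065, and Ube2c, an E2 enzyme of the APC/C, by 0.064 ± 0.074.

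The kinesins and spindle proteins held the largest fall of the set beside 2 of its 4 rises. Kif2c encodes MCAK, a kinesin that takes microtubules apart at centromeres. Kif2c read 8.21, 8.32, 8.26 and 8.15 in Trim71-cond and 7.93, 7.84, 7.82 and 8.04 in Trim71-KO. The groups did not overlap, with the narrowest gap between the 3B libraries, and the difference was -0.33 ± 0.063 (SE, adjusted p = 0.00127). Kif20a, a kinesin of the central spindle, read 9.41, 9.52, 9.52 and 9.65 and 9.40, 9.13, 9.24 and 9.43 in the same groups. Trim71-cond 1A fell within the range of Trim71-KO, so these groups overlapped, with a difference of -0.23 ± 0.065 (SE, adjusted p = 0.0198). Hmmr encodes a microtubule-binding protein of the spindle. Hmmr read 9.62, 9.61, 9.57 and 9.65 in Trim71-cond and 9.75, 9.87, 9.76 and 9.91 in Trim71-KO. Every Trim71-KO library was the higher, by 0.21 ± 0.05 (SE, adjusted p = 0.00665). Nusap1, whose product bundles spindle microtubules, read 8.46, 8.45, 8.54 and 8.56 and 8.71, 8.65, 8.65 and 8.71. These groups did not overlap either, with a difference of 0.18 ± 0.054 (SE, adjusted p = 0.0241), and the adjusted p was 0.0529 with the codes as a block. The other 5 genes, Kif11, Kif20b, Kif23, Kif4 and Prc1, motors and a bundling protein of the spindle and midzone, lay between -0.084 and 0.043 and were not called.

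Among the last 4 members, 1 was called. Ect2 encodes the exchange factor that switches on RhoA at the cleavage furrow. Ect2 read 9.36, 9.27, 9.31 and 9.37 in Trim71-cond and 9.11, 9.17, 9.21 and 9.16 in Trim71-KO. The groups did not overlap, with a difference of -0.16 ± 0.05 (SE, adjusted p = 0.0255) and an adjusted p of 0.0527 with the codes as a block. Anln, a scaffold of the contractile ring, differed by 0.017 ± 0.053. The proliferation markers Top2a and Mki67 differed by 0.021 ± 0.037 and -0.046 ± 0.051, and the 95% interval for Top2a ran from -0.055 to 0.10.

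**Figure D3:**
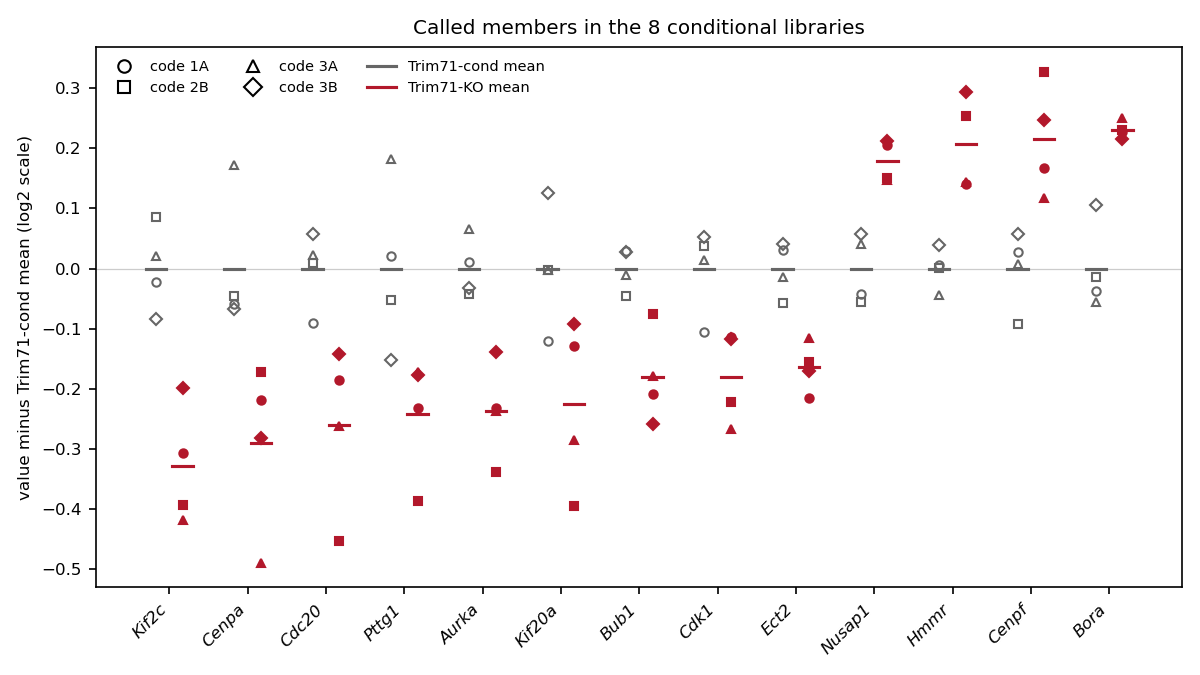
Values of the 13 called members in the 8 conditional libraries, each minus the Trim71-cond mean of its gene, on the log2 scale. Open grey symbols are Trim71-cond, filled red symbols Trim71-KO, shapes give the code and horizontal bars the group means. For Kif20a alone the symbols of the groups overlap.

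How many of these calls held depended on single libraries. Kif2c, Aurka, Cenpa, Cdc20, Cenpf and Hmmr were called whichever of the 8 libraries was left out. Cdk1 lost its call without Trim71-cond 2B, 3A or 3B (adjusted p = 0.0781, 0.064 and 0.0757) and without Trim71-KO 2B or 3A (0.0714 and 0.0926). Bora lost it without Trim71-cond 1A, 2B or 3A (0.0708, 0.056 and 0.067) and without Trim71-KO 1A or 3A (0.0607 and 0.0549). For Kif20a the libraries were Trim71-cond 2B and 3B (0.0502 and 0.0811) and Trim71-KO 2B and 3A (0.0772 and 0.0596). For Nusap1 they were Trim71-cond 1A and 2B (0.0705 and 0.0679) and Trim71-KO 1A and 3B (0.0692 and 0.0577). For Ect2 they were Trim71-cond 1A and 3B (0.0712 and 0.0547) and Trim71-KO 1A and 3B (0.0891 and 0.0522). Pttg1 was lost without Trim71-cond 3A or Trim71-KO 2B (0.108 and 0.0924) and Bub1 without Trim71-KO 3B (0.0641). No call changed direction in any of these fits. With the 5 combinations as covariates, the adjusted p was 0.0172 for Kif2c and 0.0489 for Cenpf, and between 0.052 for Cenpa and 0.17 for Ect2 among the other 11.

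**Figure D4:**
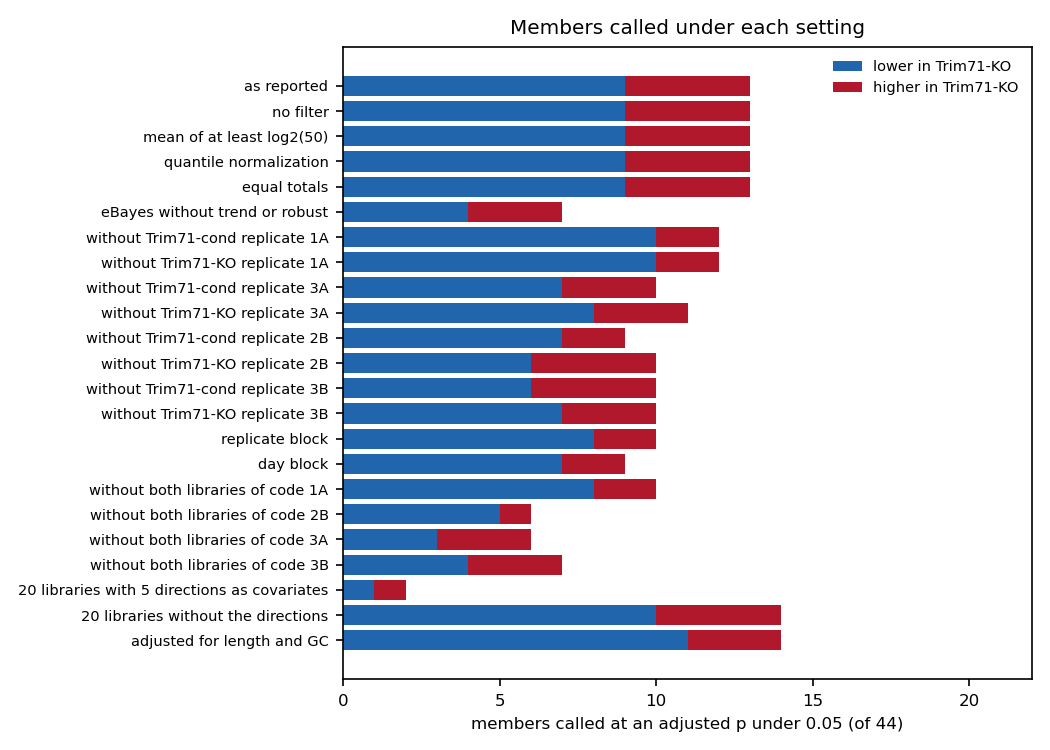
Number of the 44 members called lower (blue) or higher (red) in Trim71-KO against Trim71-cond under each alternative setting. The bars run from 2 calls, with the 5 combinations of libraries as covariates, to 14, and 13 were called in the analysis as reported.

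In the clones, no member passed the threshold in any comparison. In R595H/R595H against WT, 0 of 44 members were called by limma, against 3.42% of 9587 genes. An unadjusted p under 0.05 was reached by 7 of the 44 members and by 2018 of the 9587 genes. The median over the members was -0.012, with 24 below 0 and 20 above it. Ube2c had the smallest adjusted p, with 6.85, 6.59 and 6.89 in the WT clones and 7.04, 7.09 and 7.04 in the R595H/R595H clones. WT C7 was the lowest of these, the groups did not overlap, and the difference was 0.28 ± 0.09 (SE, adjusted p = 0.0981). Groups did not overlap for 11 members (25.0%), against 29.7% of all genes.

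Of the 13 members called after the deletion, 3 were among these 11, namely Bub1, Nusap1 and Kif2c, against 29.7% of all genes. With so few members, that share cannot be set apart from the share over all genes. Bub1 read 9.45, 9.56 and 9.41 in WT, 9.44, 9.37 and 9.53 in R595H/+ and 9.29, 9.17 and 9.34 in R595H/R595H, a difference from WT of -0.21 ± 0.074 (SE, adjusted p = 0.118). Nusap1 read 8.60, 8.49 and 8.55 in WT, 8.69, 8.56 and 8.69 in R595H/+ and 8.76, 8.66 and 8.86 in R595H/R595H, a difference of 0.22 ± 0.074 (SE, adjusted p = 0.114). Kif2c read 8.20, 8.22 and 8.13, 8.32, 8.11 and 8.03 and 7.94, 8.05 and 7.99 in the same order of genotypes, a difference of -0.19 ± 0.081 (SE, adjusted p = 0.191). Each of these lay on the side of WT on which the Trim71-KO libraries lay of Trim71-cond. Over the 13 members called after the deletion, 7 had the same sign in the clones, and over all 44 members 25 did. In a limma fit of the 12 clonal and 8 conditional libraries one by one, libraries of 1 clone were treated as separate. There Bub1, Ccna2, Kif2c, Nusap1 and Ube2c were called (adjusted p = 0.0142, 0.0256, 0.0475, 0.0162 and 0.0226). These were 5 of the 44 members, against 1346 of 9588 genes. With the 5 combinations as covariates, that fit called 0 members and 388 genes.

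The 95% intervals of the clonal differences rest on errors that are too small, so they are narrower than they should be and bound no effect. In R595H/R595H against WT the intervals of all 44 members lay within 0.5 of 0 on the log2 scale, between -0.41 and 0.47. In R595H/+ against WT they ran from -0.36 to 0.36. There 0 of 44 members were called, against 0% of 9587 genes, with 2 members and 734 genes at an unadjusted p under 0.05. The smallest adjusted p was that of Kif4, a chromosome-bound kinesin, with 7.98, 7.95 and 8.04 in WT and 8.13, 8.28 and 8.20 in R595H/+. Its groups did not overlap, with a difference of 0.21 ± 0.069 (SE, adjusted p = 0.547). In R595H/R595H against R595H/+, 0 of 44 were called, against 0.772% of 9587 genes, with 9 members and 1793 genes at an unadjusted p under 0.05. The smallest adjusted p was that of Nuf2, at -0.26 ± 0.088 (SE, adjusted p = 0.147).

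The deletion and the homozygous change were compared directly in 1 fit of both systems. The contrast of the effects called 0 of 44 members, against 1.42% of 9585 genes, with 10 members and 1667 genes at an unadjusted p under 0.05. The members nearest to the threshold were Hmmr, at 0.33 ± 0.10 (SE, adjusted p = 0.0961), Aurka, at -0.31 ± 0.10 (SE, adjusted p = 0.0967), Cdc20, at -0.33 ± 0.11 (SE, adjusted p = 0.119), and Cenpf, at 0.24 ± 0.086 (SE, adjusted p = 0.138). For Hmmr the effects were 0.21 after the deletion and -0.12 in R595H/R595H, with an interval of the difference from 0.12 to 0.54. For Aurka they were -0.24 and 0.077, with an interval from -0.52 to -0.11. Those intervals do not include 0, but they rest on the same too small errors and on tests that were not adjusted over genes, and genotype, starting cells and handling cannot be told apart in this contrast.

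The control cells of the systems also differed from each other, as far as the ranges show. Trim71-cond libraries and WT clones did not overlap for 13 members (29.5%), against 23.5% of all genes, with 4 higher in Trim71-cond and 9 higher in WT. The widest gap was that of Mad2l1, with 7.39 to 7.80 in Trim71-cond and 7.89 to 8.06 in WT. Aurkb was the other way round, with 6.66 to 7.00 in Trim71-cond and 6.36 to 6.65 in WT. Bub1, Cdk1, Bora and Cenpf, all called after the deletion, were among the genes higher in WT, and Aurka among those higher in Trim71-cond, with Birc5 and Top2a. These gaps of -0.40 for Mad2l1 and 0.37 for Aurkb are wider than any called effect of the deletion on a member. No test was made, since starting cells and handling differ between the systems.

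Other genes of mitosis were read from 5 further lists, chosen with earlier results of these data known. Of 123 tested, 8 rose and 10 fell in Trim71-KO against Trim71-cond (14.6%), against 18.6% of all genes, and their median was 0.012. With the 5 combinations as covariates, Smc4, Racgap1 and Ckap2 were called higher and Ube2s, Anapc5, Zw10 and Cks1b lower. These 3 rises and 4 falls stood against 7.22% of all genes in either direction. The other genes named below for this comparison were not called in that fit. The APC/C list held 3 falls and no rise among 17: Ube2s, an E2 enzyme that extends ubiquitin chains (-0.37 ± 0.072, adjusted p = 0.00126), and the subunits Anapc5 (-0.26 ± 0.05, 0.00113) and Cdc26 (-0.34 ± 0.11, 0.0344). Condensin and cohesin held 3 rises and no fall among 17, namely the condensin subunits Smc4 (0.26 ± 0.046, 0.000805) and Ncaph (0.22 ± 0.066, 0.0218) and the cohesin subunit Stag2 (0.21 ± 0.063, 0.022). Of 34 kinetochore genes, Knl1 rose and Cenpi (-0.39 ± 0.075, 0.00146), Zw10 and Cenph fell. Among 29 kinesin and spindle genes 4 rose, among them Racgap1, a partner of KIF23 and ECT2 at the midzone (0.27 ± 0.056, 0.00251), Ckap2 and Knstrn, and 2 fell, among them Tacc3 (-0.32 ± 0.08, 0.0088). Of 26 centrosome and kinase genes, Cks1b, a CDK subunit (-0.33 ± 0.072, 0.00336), and Ccnf fell. In R595H/R595H against WT, Psrc1 (0.46 ± 0.083, 0.00967) and Racgap1 (0.37 ± 0.076, 0.0201) rose, and no other gene of these lists was called.

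The regulators of the mitotic wave and the genes of S phase were read beside the members. These lists were chosen with earlier results of these data known, so their shares of calls are descriptions only. Of 18 genes tested in a list of DREAM, MuvB and related regulators, 4 rose in Trim71-KO and none fell, against 9.24% of all genes that rose. They were the pocket proteins Rb1 (0.40 ± 0.081, adjusted p = 0.00198) and Rbl1 (0.32 ± 0.068, 0.00256), the MuvB subunit Lin9 (0.31 ± 0.094, 0.0246) and Mybl2, which encodes B-MYB (0.21 ± 0.056, 0.0134). With the 5 combinations as covariates, Rb1 and Rbl1 were called higher, 2 of the 18, against 375 of the 9580 genes. Of 26 S-phase genes, 12 fell (46.2%) and none rose, with a median of -0.14, against 20.5% of the members and 9.37% of all genes. With the combinations as covariates, 9 of the 26 were called lower, against 315 of the 9580 genes. The largest fall of the list was that of Ccne1, a cyclin of S-phase entry (-0.80 ± 0.075, 8.15e-07), followed by Uhrf1 (-0.49 ± 0.059, 1.21e-05). In R595H/R595H against WT, no gene of either list was called by limma. Each list held 5 genes at an unadjusted p under 0.05, which 2018 of 9587 genes reached.

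Base composition moved with the effects in both systems, and length with the effect of the deletion. Across the 44 members, the Spearman correlation of the difference with the GC content of the longest coding transcript was -0.17 in Trim71-KO against Trim71-cond and 0.37 in R595H/R595H against WT. Over all genes it was -0.22 and 0.22. With transcript length it was 0.21 over the members and 0.17 over all genes after the deletion. In R595H/R595H against WT the correlation with length was 0.02 over the members and -0.042 over all genes. These are correlations across genes of the same libraries, and genes are not independent replicates. With the trend on length and GC removed from every library, 14 members were called after the deletion, 3 higher and 11 lower, without Nusap1, whose adjusted p was 0.0882.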

How the data were processed

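Bulk RNA-seq values of 20 mESC libraries were analysed (TRIZOL, TruSeq RNA v2, paired ends, per the labels' protocols). The authors used CASAVA 1.8, STAR and DESeq2, per the submitters' processing notes. Genome build, counting, transformation and the removal of 5 directions of variation have no description in the notes or labels. The deposited values reach below 0 (1.58% of them) and were read as log2, as DESeq2 run by the authors would give. The library medians of the deposited values are nearly equal, as after scaling between libraries, a step no source used here records. Depth is unknown, so no counting interval is given. The plan had assumed linear values and a pseudocount; none was needed.

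Genes whose mean reached 3.32 (10 before the log) were fitted with limma 3.58.1 (R 4.3.3; trend and robust), with calls where the Benjamini-Hochberg adjusted p was under 0.05. The conditional fit held 8 libraries, the clonal fit 9 clone values, and the contrast of effects both. Nothing shows that libraries of a group came from separate cultures, so p-values may measure technical spread. Codes mark a shared labelled day, so the block on codes counts as a pairing, although same-code deviations correlated at -0.89, -0.09, -0.12 and 0.13 (1A, 2B, 3A, 3B). Clonal libraries were dated by their titles, with which the day labels partly disagree. The fit was tested on simulated data, drawn independently for each library or clone. These data lacked the removed combinations, so that test does not bear on the too small errors.

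Per-library values are given for every called member and, in role groups without one, for the member with the smallest p in Trim71-KO against Trim71-cond; other lists are named by up to 4 called genes with the smallest p in that comparison and up to 2 in R595H/R595H against WT. Members and lists were chosen with earlier results of these data known. Alternatives were other filters, scalings, moderation, blocks, covariates and each library or clone left out.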

Additional observations from a re-analysis of the deposited data

Results flagged for a closer look

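Of 88 groups of 4 conditional libraries (44 members in 2 groups), 3 held a library far from the others by Dixon's test, and chance flags about 1 in 20 groups. Cenpa was 7.76 (7.755) in Trim71-cond 3A against 7.52 to 7.54 in the other Trim71-cond libraries. Incenp was 6.93 in the same library against 6.66 to 6.70. Kif20b was 9.63 in Trim71-KO 1A against 9.67 to 9.68 in the other Trim71-KO libraries. The cause was not tested. The Cenpa difference without Trim71-cond 3A was -0.23 (adjusted p = 0.0494).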

How the results depend on the processing

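In Trim71-KO against Trim71-cond, the same 13 members were called without a filter, with a minimum mean of 50, with quantile normalization and with equal totals. Over the 20 libraries one by one 14 were called, with Mad2l1 added, and with length and GC removed also 14, which held 12 of the 13 and Bub3 and Mad2l1. The replicate block (codes) left 10, without Bora, Nusap1 and Ect2, and the day block 9, without these and Cdk1. Moderation without trend or robust weights left 7. Over all genes, the replicate block called 1392, the day block 1399 and this moderation 1537. With 1 library left out, 9 to 12 were called. The 12 without either 1A library held 10 of the 13 and Foxm1 and Mad2l1, and the 11 without Trim71-KO 3A held 10 and Bub3. Without both libraries of a code the count was 10 for 1A (8 of the 13, with Foxm1 and Mad2l1), 6 for 2B, 6 for 3A (4 of the 13, with Bub3 and Ccnb1) and 7 for 3B. Over all genes, calls without both libraries of a code were 1496 for 1A, 988 for 2B, 1132 for 3A and 1126 for 3B. With the 5 combinations as covariates the member count was 2. That fit spends 5 further degrees of freedom, and the other causes were not tested. Kif2c was called in all 22 alternatives, Cenpf and Hmmr in 21, and Aurka in 20, and no call of a member was reversed in any alternative run. In the clonal comparisons and the contrast of effects the count stayed 0 of 44 in every alternative, leave-one-out fits included (0 to 0), with 1 exception. Over the 20 libraries one by one, without the combinations and with the libraries of a clone as separate, it was 5 in R595H/R595H against WT and 5 in R595H/R595H against R595H/+ (Bub1, Ccna2, Espl1, Kif2c, Nuf2). Apart from the fits of 20 libraries, the 1783 genes called after the deletion were 988 to 1845, the 328 in R595H/R595H against WT 67 to 541, the 74 in R595H/R595H against R595H/+ 5 to 213 and the 136 of the contrast 40 to 225. In the same order they were 692, 388, 133 and 36 over 20 libraries with the 5 combinations as covariates, and 1865, 1346, 1106 and 411 without them. In R595H/+ against WT 15 genes were called over 20 libraries without the combinations, and none in any other alternative. Pseudocounts were not run, since the values are on a log scale, and the 20/1 libraries alone, 1 per genotype, give values without a test. Depth is unknown, so its limits could not be computed. The median half-width of the 95% intervals over the members, 0.13 after the deletion and 0.17 between clones, is too narrow for the reason given above.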
